A study of Mus musculus with 24 samples.

Results

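The enzymes that build cholesterol and fatty acids, together with the factors that switch their genes on, were followed through the differentiation of C2C12 mouse myoblasts with and without an shRNA against the RNA helicase p68. The set was a list of 36 genes taken by name: the steps from acetyl-CoA to cholesterol, the fatty acid synthesis and desaturation enzymes, SREBP transcription factors with their membrane partners, and a pair of sterol carriers. Every probe set whose annotated symbol, current or older, was on the list was taken from 2 array designs, called MA and MB after the endings of the sample titles. Of the 36 genes, 35 had a probe set with a single gene symbol, out of 18194 genes named on the arrays, and Acat2 is not analysed here. The MA design held 66 probe sets for 34 of the genes, and 60 of them, for 33 genes, passed the filter on low signal. The MB design held 14 probe sets for 13 genes, all of which passed. Of the probe sets that represent the genes, 32 of 33 on MA and 8 of 13 on MB reached the filter signal in all 12 arrays of their design. Insig1 was read only on MB, and Acaca passed the filter only on MB.

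C2C12 is a mouse myoblast line that divides in growth medium (GM) and forms multinucleate myotubes in differentiation medium (DM). All cells had been transduced with pSuperR, a vector built to express a short hairpin RNA (shRNA), either with the p68 hairpin or empty. The 4 groups were therefore p68 shRNA cells in DM, empty-vector cells in DM, p68 shRNA cells in GM and empty-vector cells in GM, with 3 arrays per group on each design and 24 arrays in all. The labels give no time in DM and do not say whether replicates were separate cultures or whether the transduced cells were clones, and a p-value here therefore rests on array-to-array spread that may be technical. The labels name a single shRNA construct, and the control is the empty vector.

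Cholesterol is made from acetyl-CoA through mevalonate, isoprenoid pyrophosphates, squalene and lanosterol, and long fatty acids are made from the same precursor by carboxylation, repeated condensation, elongation and desaturation. Both routes are governed by SREBP proteins, membrane-bound transcription factors that the escort protein SCAP carries to the Golgi for cleavage when sterols are low and that INSIG proteins hold back in the endoplasmic reticulum when sterols are plentiful. Dividing cells need both products for new membrane, and differentiating muscle cells rebuild their membranes while they fuse.

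The targeted gene, Ddx5, was lower with the shRNA in DM by its brightest probe set (-0.68 ± 0.15, adjusted p = 0.00677), and in GM its change was -0.31 ± 0.15 (adjusted p = 0.287), which did not pass. Of the 6 Ddx5 probe sets on MA, the other 5 did not pass in DM, with changes of -0.48 to 0.0088. In GM, 0 of the 6 passed in limma (-0.49 to -0.067, 1 at an unadjusted p under 0.05). All shRNA arrays lay below all vector arrays for 1 of the 6 in DM and for 2 of the 6 in GM. Myog, a transcription factor of muscle differentiation, marked the change of medium in both cell types, with log2 changes of 6.12 ± 0.17 in shRNA cells and 6.19 ± 0.17 in vector cells. The summed signal of 4 proliferation markers, of 5 listed, was 1053 to 1208 in DM shRNA arrays, 306 to 458 in DM vector arrays, 2361 to 2551 in GM shRNA arrays and 3029.7 to 3160 in GM vector arrays, and all 4 markers were higher with the shRNA in DM. Of 6 muscle markers, 3 were lower with the shRNA in DM, with summed signals of 21383 to 24541 in shRNA arrays and 25075 to 40915 in vector arrays. In GM these sums were 2801 to 3261 in shRNA arrays and 3476 to 3839 in vector arrays. Of 8 adipocyte markers, 6 of which MA carries, Adipoq, Fabp4 and Lep stayed below the filter, and 0 of the 3 that were tested changed with the shRNA in DM in limma, with 0 at an unadjusted p under 0.05. Among the 3 tested were Cebpa, at signals of 114 to 307 over the 12 arrays, and Pparg, at 4.41 to 57.5. Macrophage markers, 5 of 6 of which were tested, gave 0 calls in limma in that comparison, with 1 (Cd14) at an unadjusted p under 0.05, and the defining endothelial genes Cdh5, Pecam1 and Tek and hepatocyte genes Apoa1 and Ttr stayed below the filter on MA. The other listed genes of these types passed the filter on MA, Kdr at signals of 39.6 to 65.1 and Alb at 15.5 to 45.8 over the 12 arrays, as did Ttr on MB (3.16 to 79.4). For all 3 the shRNA and vector arrays overlap in DM. The part of the proliferation and muscle markers in the results for lipid synthesis genes was not tested, and fewer cells of a type and less RNA per cell cannot be told apart in such bulk samples. Within their groups, DM vector replicate 3 on MA (mean correlation with its group of 0.951, against 0.962 to 0.983 for the others) and DM vector replicate 2 on MB (0.825, against 0.835 to 0.886) stood farthest from their partners.

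In DM, lipid synthesis genes were broadly higher with the p68 shRNA than with the empty vector. On MA, 27 of the 33 members rose and 0 fell in limma, where 12.2% of all 8639 genes tested rose and 6.67% fell. The median log2 change of the members was 0.80, beside 0.062 over all genes tested, and 32 of the 33 had a positive change. The 6 that did not pass were Hsd17b7, Ebp, Dhcr7, Scap, Insig2 and Me1, and of these Ebp alone had a negative change. All 3 shRNA arrays lay above all 3 vector arrays in DM for 27 members and below them for 0, as they did for 20% and 12.6% of all genes. A change is given throughout as the difference of mean log2(signal + pseudocount) ± standard error from a limma fit over 12 arrays of a design, with p adjusted by the Benjamini-Hochberg method over all tested probe sets, and a change passes when the adjusted p is under 0.05. The pseudocount makes such a change smaller than the true one where signals are low. When each array was left out in turn, the call of 22 of the 27 members stood every time, and 22 to 28 members passed. The other 5 were Pmvk, Acss2, Scd2, Srebf1 and Srebf2, and each is taken up below.

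**Figure D1:**
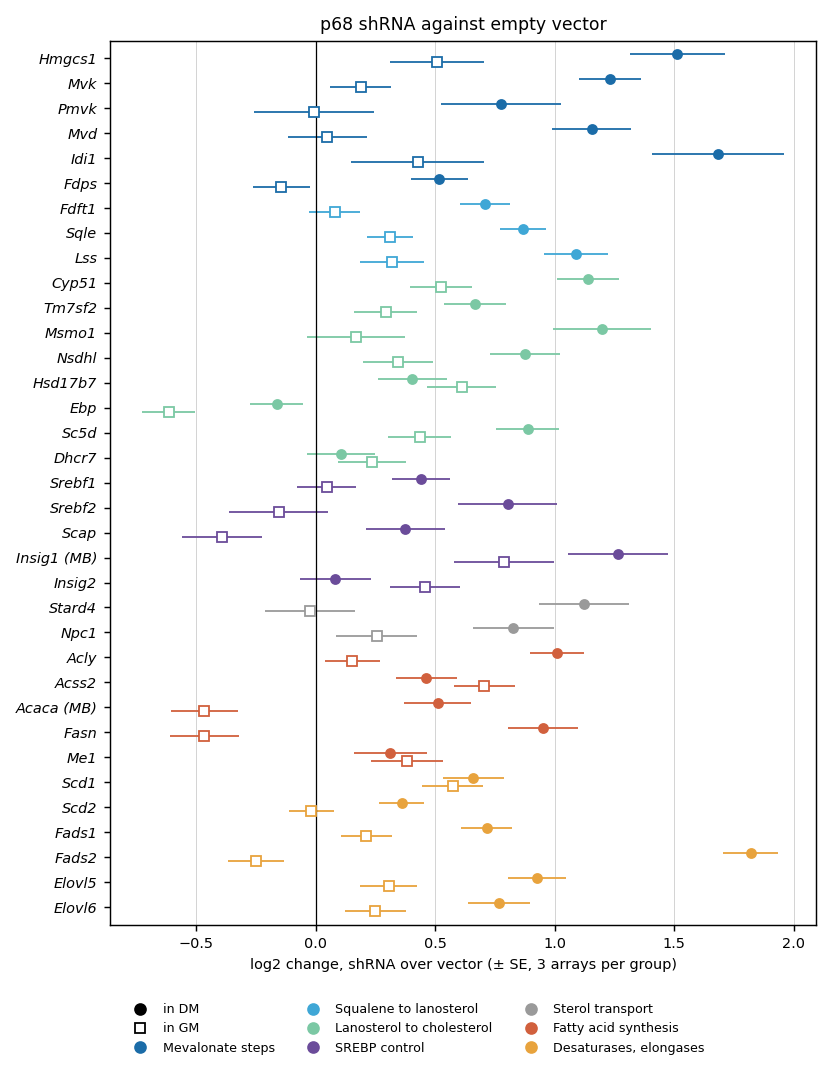
Log2 change with the p68 shRNA against the empty vector (horizontal axis, ± standard error, 3 arrays per group) for each member (rows, coloured by role), in DM (filled circles) and in GM (open squares). In DM the points lie between -0.16 for Ebp and 1.82 for Fads2, and in GM between -0.62 for Ebp and 0.79 for Insig1.

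The 250 bases before the RefSeq start of 7 members are printed because they stand for the steps described next: for each role but sterol transport, the member with the largest rise with the shRNA in DM among those with a single promoter entry, and in addition Hmgcs1. The sterol carriers had no promoter entry, and Insig1 was ranked by its change on MB beside changes on MA. Sequences are those of RefSeq on GRCm38.p6, written 5′ to 3′ on the strand of the gene, and capitals mark matches on either strand to TCACNCCAC (a sterol regulatory element), CCAAT (bound by NF-Y), GGGCGG (bound by Sp1) and CACGTG (an E-box). Hmgcs1, chr13:119690101-119690350, plus strand: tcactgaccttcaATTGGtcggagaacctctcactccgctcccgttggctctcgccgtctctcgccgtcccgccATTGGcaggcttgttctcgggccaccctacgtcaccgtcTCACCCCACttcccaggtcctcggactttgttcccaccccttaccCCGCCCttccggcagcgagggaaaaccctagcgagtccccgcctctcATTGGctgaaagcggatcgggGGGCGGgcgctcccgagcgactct
Idi1, chr13:8885356-8885605, plus strand: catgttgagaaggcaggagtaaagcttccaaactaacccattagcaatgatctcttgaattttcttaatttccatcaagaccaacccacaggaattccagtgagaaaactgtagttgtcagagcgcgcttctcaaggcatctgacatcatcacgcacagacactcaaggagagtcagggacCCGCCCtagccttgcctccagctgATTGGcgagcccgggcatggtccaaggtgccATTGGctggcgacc
Lss, chr10:76531355-76531604, plus strand: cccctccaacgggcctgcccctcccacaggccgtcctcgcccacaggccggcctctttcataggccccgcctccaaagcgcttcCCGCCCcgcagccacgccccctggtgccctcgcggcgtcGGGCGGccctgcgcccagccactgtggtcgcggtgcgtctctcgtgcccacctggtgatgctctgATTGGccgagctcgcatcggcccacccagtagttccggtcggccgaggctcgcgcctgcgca
Msmo1, chr8:64733579-64733828, minus strand: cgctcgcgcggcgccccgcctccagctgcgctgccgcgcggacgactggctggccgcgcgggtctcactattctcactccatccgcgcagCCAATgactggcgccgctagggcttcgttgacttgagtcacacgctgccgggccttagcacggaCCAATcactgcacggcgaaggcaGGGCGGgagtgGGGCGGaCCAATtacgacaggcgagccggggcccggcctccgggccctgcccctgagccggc
Insig1, chr5:28071162-28071411, plus strand: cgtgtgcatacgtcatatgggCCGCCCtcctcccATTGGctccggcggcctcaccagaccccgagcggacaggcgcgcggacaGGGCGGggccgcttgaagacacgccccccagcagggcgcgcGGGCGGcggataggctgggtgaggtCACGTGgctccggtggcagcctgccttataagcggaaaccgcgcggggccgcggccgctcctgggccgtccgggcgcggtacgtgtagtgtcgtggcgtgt
Acly, chr11:100528001-100528250, minus strand: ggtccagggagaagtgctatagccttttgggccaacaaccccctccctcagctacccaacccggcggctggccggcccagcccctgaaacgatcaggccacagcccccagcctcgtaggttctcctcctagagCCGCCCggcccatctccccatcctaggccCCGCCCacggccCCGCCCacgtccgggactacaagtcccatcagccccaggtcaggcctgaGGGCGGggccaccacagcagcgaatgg
Fads2, chr19:10101504-10101753, minus strand: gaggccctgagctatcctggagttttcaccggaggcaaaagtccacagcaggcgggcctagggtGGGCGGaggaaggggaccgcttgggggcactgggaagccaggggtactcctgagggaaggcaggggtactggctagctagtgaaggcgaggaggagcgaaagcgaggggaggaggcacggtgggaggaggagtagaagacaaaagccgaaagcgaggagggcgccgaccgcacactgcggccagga TCACNCCAC occurs once among them, in the Hmgcs1 promoter, as TCACCCCAC starting 137 bases before the RefSeq start, and 3 CCAAT matches lie in the same promoter, 237, 176 and 45 bases before it. The table matched 28 of the 36 listed genes, Acat2 included, with 37 promoter entries. TCACNCCAC was found in 1 of the 37 entries (2.70%) and in 1.05% of all 32851 promoter windows of the same length. CCAAT was found in 23 entries (62.2%), against 33.8% of all windows, and GGGCGG in 26 (70.3%), against 32.7%. CACGTG lay in 6 entries (16.2%), those of Dhcr7, Elovl5, Hsd17b7, Insig1, Sc5d and Scap, against 6.02% of all windows. No match in the printed promoters overlaps another, the shares were not tested, and a match is a description of the letters and not of binding.

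The mevalonate steps rose as a whole: all 6 enzymes measured passed in DM with the shRNA, with a median of 1.19. Idi1 signals in DM were 539, 304 and 349 in shRNA arrays and 175, 117 and 62.7 in vector arrays. Idi1 signals in GM were 104, 88.9 and 135 in shRNA arrays and 92.2, 69.5 and 70.0 in vector arrays. Idi1, which isomerises isopentenyl pyrophosphate, was highest in the 3 DM shRNA arrays, which lie apart from the other 9. It rose by 1.68 ± 0.28, 3.21-fold (adjusted p = 0.000728) with the shRNA in DM and rose by 1.70 ± 0.28 (adjusted p = 0.000253) in DM over GM in shRNA cells. Neither the shRNA in GM (0.43 ± 0.28, adjusted p = 0.437) nor DM in vector cells (0.45 ± 0.28, adjusted p = 0.201) gave a change that passed, but without DM vector replicate 3, its lowest array of that group, the DM change in vector cells passed at 0.79, adjusted p = 0.0105. Hmgcs1 signals in DM were 2338, 1939 and 1860.0 in shRNA arrays and 987, 765 and 460.5 in vector arrays. Hmgcs1 signals in GM were 1066, 1114 and 1011 in shRNA arrays and 768, 683 and 786 in vector arrays. Hmgcs1, the synthase that makes HMG-CoA, was likewise highest in DM with the shRNA, and its DM vector arrays spread across the whole range of the GM vector arrays and beyond. Hmgcs1 rose by 1.51 ± 0.20, 2.85-fold (adjusted p = 0.000112) with the shRNA in DM and rose by 0.93 ± 0.20 (adjusted p = 0.00213) in DM over GM in shRNA cells. With the shRNA in GM its 3 arrays lay above the vector arrays, with a change of 0.51 ± 0.20 (adjusted p = 0.153) that did not pass; without DM vector replicate 3 it did (0.51, adjusted p = 0.0137). Of its other 3 probe sets, 1433446_at gave 0.80 ± 0.20 (adjusted p = 0.0256) in GM and 0.63 ± 0.20 (adjusted p = 0.0162) for DM over GM in vector cells, both of which passed.

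Mvk signals in DM were 208, 239.6 and 262 in shRNA arrays and 86.9, 106 and 84.4 in vector arrays. Mvk signals in GM were 239, 259.7 and 244 in shRNA arrays and 203, 242 and 204 in vector arrays. Mvk, the mevalonate kinase, was low in a single group, DM with the vector, and the other 3 groups overlap. It rose by 1.23 ± 0.13, 2.35-fold (adjusted p = 1.67e-05) with the shRNA in DM and fell by 1.11 ± 0.13, 2.16-fold (adjusted p = 4.8e-06) in DM over GM in vector cells, while in shRNA cells the medium gave -0.066 ± 0.13 (adjusted p = 0.736). Its second probe set passed for the shRNA in DM (0.99 ± 0.19, adjusted p = 0.00253) and not for DM over GM in vector cells (-0.36 ± 0.19, adjusted p = 0.139). Pmvk signals in DM were 101, 127 and 166 in shRNA arrays and 51.4, 50.1 and 124 in vector arrays. Pmvk signals in GM were 139, 115 and 101 in shRNA arrays and 109.5, 114 and 131 in vector arrays. Pmvk, which adds the next phosphate, was low in DM vector replicates 1 and 2 but not in replicate 3, so the groups overlap. Pmvk rose by 0.77 ± 0.25 (adjusted p = 0.0478) with the shRNA in DM and fell by 0.66 ± 0.25 (adjusted p = 0.0422) in DM over GM in vector cells. Both calls are near the threshold: leaving out any of 10 arrays ended the call for the shRNA in DM (adjusted p of 0.0567 to 0.182), and any of 7 that for the medium (0.0528 to 0.176). Mvd, the mevalonate pyrophosphate decarboxylase, rose by 1.15 ± 0.17 (adjusted p = 0.000249) with the shRNA in DM, with signals of 307, 393 and 395 in shRNA arrays and 149, 140.3 and 177 in vector arrays. Fdps, which makes farnesyl pyrophosphate, had the smallest change of the 6 enzymes, 0.52 ± 0.12 (adjusted p = 0.00763). In shRNA cells Mvd rose by 1.07 ± 0.17 (adjusted p = 0.000163) and Fdps rose by 0.62 ± 0.12 (adjusted p = 0.000968) in DM over GM, whereas in vector cells their changes were -0.035 ± 0.17 and -0.038 ± 0.12 and did not pass.

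**Figure D2:**
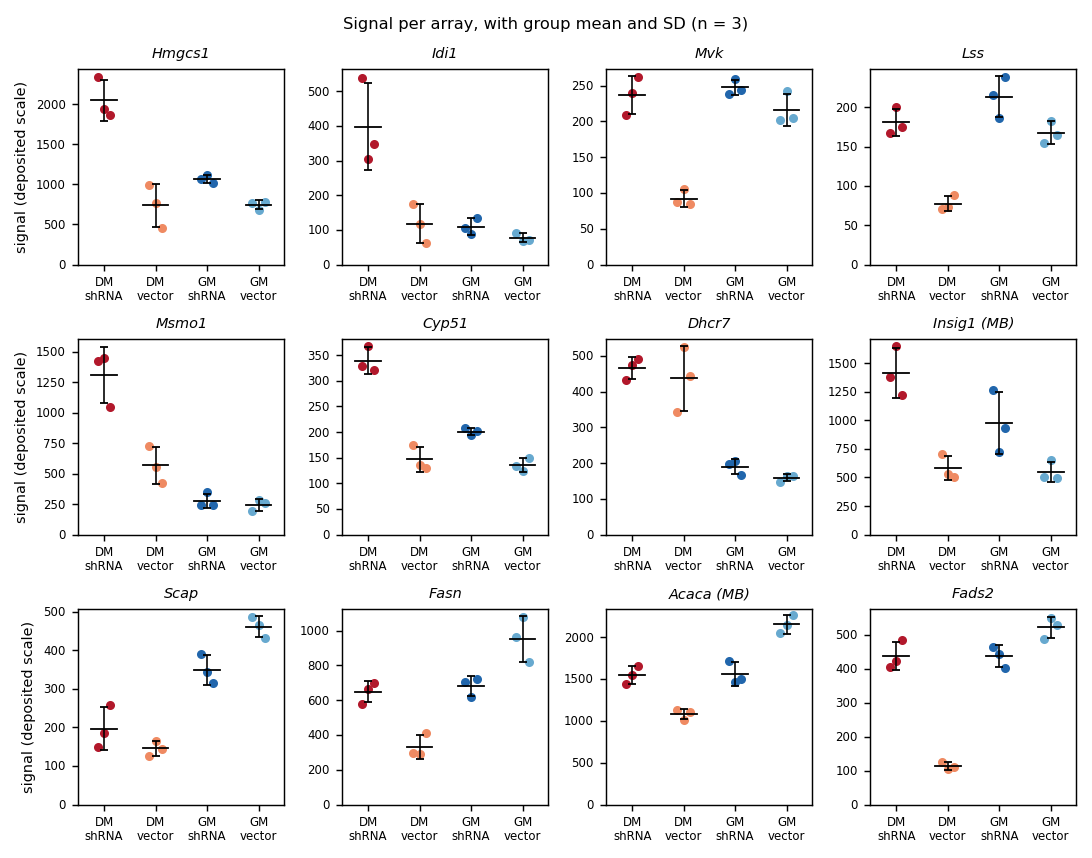
Signal of selected members (vertical axis, signal on the deposited linear scale, starting at 0) in every array, with groups from left to right DM shRNA, DM vector, GM shRNA and GM vector, points for single arrays, long bars for group means and whiskers for the SD (n = 3). Mvk, Lss, Fasn, Acaca and Fads2 are lowest in the DM vector arrays, Idi1, Hmgcs1 and Msmo1 are highest in the DM shRNA arrays, and Dhcr7 and Scap differ between the media.

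From farnesyl pyrophosphate to lanosterol, all 3 enzymes rose with the shRNA in DM. Lss signals in DM were 167, 201 and 175 in shRNA arrays and 70.4, 73.2 and 88.1 in vector arrays. Lss signals in GM were 216, 186 and 238 in shRNA arrays and 155, 183 and 165 in vector arrays. Lss, the synthase that folds squalene epoxide into lanosterol, was lowest in the 3 DM vector arrays, and the other 9 arrays all lay higher. By this probe set it rose by 1.09 ± 0.13, 2.13-fold (adjusted p = 7.08e-05) with the shRNA in DM and fell by 0.99 ± 0.13 (adjusted p = 2.46e-05) in DM over GM in vector cells. The other Lss probe set, 1426913_at, passed in neither, at 0.58 ± 0.20 (adjusted p = 0.0606) and 0.018 ± 0.20 (adjusted p = 0.951), so the fall with the medium rests on a single probe set. Sqle signals in DM were 842, 845 and 784 in shRNA arrays and 478, 436 and 422 in vector arrays. Sqle signals in GM were 607, 565 and 605 in shRNA arrays and 499.9, 461 and 465 in vector arrays. Sqle, the squalene epoxidase, was highest in DM with the shRNA, second in GM with the shRNA, and lower in both vector groups. Sqle rose by 0.87 ± 0.096 (adjusted p = 2.82e-05) with the shRNA in DM, and in GM, where its groups do not overlap either, the change of 0.31 ± 0.096 (adjusted p = 0.072) did not pass. Without DM vector replicate 3 the GM change passed (0.31, adjusted p = 0.0457). Fdft1, squalene synthase, rose by 0.71 ± 0.11 (adjusted p = 0.000359) with the shRNA in DM, and rose by 0.87 ± 0.11 (adjusted p = 1.73e-05) in DM over GM in shRNA cells. Of its 4 probe sets, 1438918_at (-0.083 ± 0.40, adjusted p = 0.922) and 1438919_x_at (0.27 ± 0.31, adjusted p = 0.623) both missed the threshold with the shRNA in DM.

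From lanosterol to cholesterol the pattern was mixed, with 5 of 8 enzymes higher with the shRNA in DM and a median of 0.77. Msmo1 signals in DM were 1427, 1449 and 1047 in shRNA arrays and 726, 555 and 425 in vector arrays. Msmo1 signals in GM were 242, 346 and 239 in shRNA arrays and 190.4, 279.9 and 259 in vector arrays. Msmo1, a methylsterol oxidase, stands in 3 levels: highest in DM with the shRNA, lower in DM with the vector, and lowest in both GM groups, which overlap. It rose by 1.20 ± 0.21, 2.29-fold (adjusted p = 0.000983) with the shRNA in DM, and in DM over GM it rose by 2.19 ± 0.21, 4.57-fold (adjusted p = 1.35e-06) in shRNA cells and rose by 1.16 ± 0.21, 2.24-fold (adjusted p = 0.000266) in vector cells. Cyp51 signals in DM were 329, 369 and 321 in shRNA arrays and 175, 135 and 129.9 in vector arrays. Cyp51 signals in GM were 207, 195 and 201 in shRNA arrays and 133, 124 and 150.0 in vector arrays. Cyp51, the lanosterol demethylase, was higher with the shRNA in both media, and the 2 vector groups overlap. Cyp51 rose by 1.14 ± 0.13 (adjusted p = 3.4e-05) with the shRNA in DM and rose by 0.52 ± 0.13 (adjusted p = 0.026) with the shRNA in GM, the GM call being lost without any of 5 arrays (adjusted p of 0.0638 to 0.114) and by its second probe set (0.23 ± 0.22, adjusted p = 0.624). Dhcr7 signals in DM were 432, 475 and 489.9 in shRNA arrays and 344, 524 and 444 in vector arrays. Dhcr7 signals in GM were 196, 207 and 168 in shRNA arrays and 148, 164 and 165 in vector arrays. Dhcr7, the last reductase of the route, differed by medium: every DM array lies above every GM array, and the DM groups overlap. Dhcr7 rose by 1.23 ± 0.14 (adjusted p = 1.15e-05) in shRNA cells and rose by 1.36 ± 0.14 (adjusted p = 1.71e-06) in vector cells in DM over GM, and its changes with the shRNA were 0.11 ± 0.14 (adjusted p = 0.684) in DM and 0.23 ± 0.14 (adjusted p = 0.399) in GM.

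Ebp, the sterol isomerase, was lower wherever it passed, with signals of 801, 967 and 811 in shRNA arrays and 1308, 1300.3 and 1354 in vector arrays in GM. It fell by 0.62 ± 0.11 (adjusted p = 0.0047) with the shRNA in GM, where the groups do not overlap, and fell by 0.79 ± 0.11 (adjusted p = 3.09e-05) in DM over GM in vector cells. In shRNA cells Ebp fell by 0.34 ± 0.11 (adjusted p = 0.0271) in DM over GM, a call lost without DM shRNA replicate 1 or GM shRNA replicate 3 (adjusted p of 0.121 to 0.125) and when eBayes was run without a trend (adjusted p = 0.0541). Hsd17b7, a sterol ketone reductase, rose by 0.61 ± 0.14 (adjusted p = 0.0207) with the shRNA in GM, and in DM its change of 0.40 ± 0.14 (adjusted p = 0.0706) did not pass although the groups do not overlap. The GM call of Hsd17b7 was lost without GM shRNA replicate 2 or 4 or GM vector replicate 3 or 4 (adjusted p of 0.0616 to 0.0975), and the DM change passed without DM vector replicate 3 (0.49, adjusted p = 0.0307). The GM call was also lost after quantile normalization (0.51, adjusted p = 0.0522) and by its second probe set (0.36 ± 0.23, adjusted p = 0.415). Nsdhl, a sterol dehydrogenase, rose by 0.87 ± 0.15 (adjusted p = 0.000789) with the shRNA in DM, and in DM over GM it rose by 1.03 ± 0.15 (adjusted p = 6.95e-05) in shRNA cells and rose by 0.50 ± 0.15 (adjusted p = 0.00969) in vector cells. Tm7sf2, a sterol reductase, rose by 0.67 ± 0.13 (adjusted p = 0.00257) with the shRNA in DM. Sc5d, the lathosterol desaturase, rose by 0.89 ± 0.13 (adjusted p = 0.000336) with the shRNA in DM by its brightest probe set, but its other probe set gave -0.049 ± 0.27 (adjusted p = 0.932).

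Of the SREBP regulators on MA, Srebf1 and Srebf2 rose with the shRNA in DM and Scap and Insig2 did not pass, with a median of 0.41 over the 4. Srebf1 signals in DM were 527, 533 and 594 in shRNA arrays and 378, 458 and 374 in vector arrays. Srebf1 signals in GM were 664, 727 and 578 in shRNA arrays and 647, 689.7 and 569 in vector arrays. Srebf1, which encodes SREBP-1, the form known for fatty acid genes, was lowest in DM with the vector, and the GM groups overlap. Srebf1 rose by 0.44 ± 0.12 (adjusted p = 0.0218) with the shRNA in DM, a call lost without DM shRNA replicate 2 or 3 or DM vector replicate 1 or 3 (adjusted p of 0.051 to 0.0862), and fell by 0.64 ± 0.12 (adjusted p = 0.000529) in DM over GM in vector cells. Srebf2 signals in DM were 707, 1050.2 and 1239 in shRNA arrays and 416, 556 and 725 in vector arrays. Srebf2 signals in GM were 509.8, 458 and 475 in shRNA arrays and 444, 622 and 560.4 in vector arrays. Srebf2, which encodes SREBP-2, the form known for sterol genes, was high in DM shRNA replicates 2 and 3, while replicate 1 lay within the DM vector range. By this probe set it rose by 0.80 ± 0.21 (adjusted p = 0.0148) with the shRNA in DM and rose by 0.996 ± 0.21 (adjusted p = 0.0018) in DM over GM in shRNA cells. The other Srebf2 probe set, 1426744_at, gave 0.088 ± 0.16 (adjusted p = 0.766) and 0.089 ± 0.16 (adjusted p = 0.705), and the DM call was also lost without DM shRNA replicate 2 or 3 or DM vector replicate 1 (adjusted p of 0.0551 to 0.0755).

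Scap signals in DM were 148, 186 and 258 in shRNA arrays and 127, 166 and 145 in vector arrays. Scap signals in GM were 390.1, 343 and 314 in shRNA arrays and 486, 465 and 433 in vector arrays. Scap, the escort of the SREBP proteins, was lower in every DM array than in any GM array. It fell by 0.81 ± 0.17, 1.75-fold (adjusted p = 0.00168) in shRNA cells and fell by 1.57 ± 0.17, 2.97-fold (adjusted p = 1.84e-06) in vector cells in DM over GM, and its change with the shRNA in DM was 0.37 ± 0.17 (adjusted p = 0.148), which passed without DM shRNA replicate 1 (0.55, adjusted p = 0.0386). Scap fell by 1.79 ± 0.44 (adjusted p = 0.0126) on MB too in vector cells, a call lost without DM vector replicate 3 or GM vector replicate 3 (adjusted p of 0.0553 to 0.0743). Insig1 signals in DM were 1379.6, 1650.2 and 1219 in shRNA arrays and 707, 534 and 506 in vector arrays. Insig1 signals in GM were 1269, 727 and 930.3 in shRNA arrays and 500.3, 649 and 499 in vector arrays. Insig1, read on MB alone, retains SCAP in the endoplasmic reticulum and is itself a textbook SREBP target; its shRNA arrays lay above the vector arrays in both media. Insig1 rose by 1.26 ± 0.21, 2.4-fold (adjusted p = 0.00391) with the shRNA in DM, and in GM its change of 0.79 ± 0.21 (adjusted p = 0.199) did not pass. The DM call was kept without any single array and lost when eBayes was run without a trend (adjusted p = 0.119). Insig2 signals in DM were 124, 132 and 125 in shRNA arrays and 146, 109.9 and 105 in vector arrays. Insig2 signals in GM were 121, 152 and 121 in shRNA arrays and 84.2, 87.2 and 103 in vector arrays. Insig2, the second retention protein, had overlapping groups in DM and non-overlapping ones in GM. Its changes with the shRNA were 0.082 ± 0.15 (adjusted p = 0.767) in DM and 0.46 ± 0.15 (adjusted p = 0.0836) in GM, the second of which passed without DM vector replicate 1 (0.46, adjusted p = 0.049) or 3 (0.46, adjusted p = 0.0483).

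Both sterol carriers rose with the shRNA in DM. Stard4 signals in DM were 196, 146 and 149.6 in shRNA arrays and 93.1, 56.8 and 54.9 in vector arrays. Stard4 signals in GM were 130.1, 93.4 and 136 in shRNA arrays and 131, 118 and 113 in vector arrays. Stard4, a soluble carrier of cholesterol between membranes, was lowest on average in DM with the vector, and the GM groups overlap. Stard4 rose by 1.12 ± 0.19, 2.18-fold (adjusted p = 0.000842) with the shRNA in DM and fell by 0.73 ± 0.19 (adjusted p = 0.00463) in DM over GM in vector cells. On MB, where its signals in DM were 743, 864 and 674 in shRNA arrays and 359, 317 and 289 in vector arrays, it rose by 1.20 ± 0.19, 2.3-fold (adjusted p = 0.00281), a call lost when eBayes was run without a trend (adjusted p = 0.0937). Npc1 signals in DM were 60.7, 59.3 and 53.7 in shRNA arrays and 32.0, 22.7 and 24.2 in vector arrays. Npc1 signals in GM were 47.4, 60.1 and 45.1 in shRNA arrays and 37.8, 35.1 and 47.8 in vector arrays. Npc1, which lets cholesterol leave lysosomes, was near the filter signal in the DM vector arrays, 2 of which were below it. Npc1 rose by 0.83 ± 0.17 (adjusted p = 0.00362) with the shRNA in DM, and its change in DM over GM in vector cells was -0.42 ± 0.17 (adjusted p = 0.0539), which passed without DM vector replicate 1 (-0.51, adjusted p = 0.0352).

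Among the enzymes of fatty acid synthesis, 3 of 4 on MA rose with the shRNA in DM. Acly signals in DM were 549, 658 and 622 in shRNA arrays and 319, 266 and 302 in vector arrays. Acly signals in GM were 655, 613 and 728 in shRNA arrays and 552, 607 and 631 in vector arrays. Acly, which makes cytosolic acetyl-CoA from citrate, was low in DM with the vector alone, and the other 3 groups overlap. Acly rose by 1.01 ± 0.11, 2.01-fold (adjusted p = 3.36e-05) with the shRNA in DM and fell by 0.98 ± 0.11, 1.97-fold (adjusted p = 5.04e-06) in DM over GM in vector cells, against -0.12 ± 0.11 (adjusted p = 0.443) in shRNA cells. Of its other 2 probe sets, 1439459_x_at fell by 1.504 ± 0.14 (adjusted p = 6.46e-07) in vector cells and fell by 0.47 ± 0.14 (adjusted p = 0.021) in shRNA cells, and 1425326_at gave 0.015 ± 0.16 (adjusted p = 0.948) and 0.31 ± 0.16 (adjusted p = 0.151). Fasn signals in DM were 580.5, 667 and 697 in shRNA arrays and 295, 289 and 410.3 in vector arrays. Fasn signals in GM were 707, 618 and 721 in shRNA arrays and 962, 1076 and 817 in vector arrays. Fasn, fatty acid synthase, was lowest in DM with the vector and highest in GM with the vector, and the 2 shRNA groups lay between them and overlapped each other. Fasn rose by 0.95 ± 0.14, 1.93-fold (adjusted p = 0.000399) with the shRNA in DM and fell by 1.49 ± 0.14, 2.81-fold (adjusted p = 7.67e-07) in DM over GM in vector cells, while the medium gave -0.073 ± 0.14 (adjusted p = 0.74) in shRNA cells. In GM its change with the shRNA, -0.47 ± 0.14 (adjusted p = 0.0709), was negative and did not pass; without DM vector replicate 3 it did (-0.47, adjusted p = 0.0205).

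Acaca signals in DM were 1444, 1548 and 1658 in shRNA arrays and 1125, 1015 and 1111 in vector arrays. Acaca signals in GM were 1718, 1459.9 and 1494 in shRNA arrays and 2044, 2148 and 2269 in vector arrays. Acaca, the acetyl-CoA carboxylase that makes malonyl-CoA, was read on MB in the same order as Fasn on MA: lowest in DM with the vector, highest in GM with the vector. Acaca fell by 0.98 ± 0.14 (adjusted p = 7.38e-05) in DM over GM in vector cells, and its other changes were -0.0054 ± 0.14 (adjusted p = 0.997) in DM over GM in shRNA cells, 0.51 ± 0.14 (adjusted p = 0.105) with the shRNA in DM and -0.47 ± 0.14 (adjusted p = 0.284) with the shRNA in GM. Acss2, which makes acetyl-CoA from acetate, rose by 0.71 ± 0.13 (adjusted p = 0.0047) with the shRNA in GM and rose by 0.46 ± 0.13 (adjusted p = 0.0206) in DM. The DM call of Acss2 was lost without DM shRNA replicate 2 or 3 or DM vector replicate 2 (adjusted p of 0.0706 to 0.074). Its other MA probe set did not pass in GM (0.63 ± 0.18, adjusted p = 0.0502) or in DM (0.53 ± 0.18, adjusted p = 0.0568). Me1, malic enzyme, a source of NADPH, did not pass with the shRNA in DM (0.31 ± 0.15, adjusted p = 0.19) and fell by 0.42 ± 0.15 (adjusted p = 0.0432) in DM over GM in shRNA cells. That fall was lost without any of 7 arrays (adjusted p of 0.0527 to 0.192), and the other Me1 probe set gave 0.17 ± 0.17 (adjusted p = 0.487).

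All 6 desaturases and elongases rose with the shRNA in DM, with a median of 0.74. Fads2 signals in DM were 405, 423 and 484 in shRNA arrays and 126, 104 and 109 in vector arrays. Fads2 signals in GM were 464, 443 and 400.5 in shRNA arrays and 487, 548 and 528 in vector arrays. Fads2, the first desaturase of polyunsaturated fatty acids, was low in DM vector arrays alone, and the DM shRNA arrays overlap the GM shRNA arrays. Fads2 rose by 1.82 ± 0.12, 3.53-fold (adjusted p = 3.8e-07) with the shRNA in DM, the largest change of a member in that comparison on MA, and fell by 2.07 ± 0.12, 4.19-fold (adjusted p = 2.07e-09) in DM over GM in vector cells, against 0.0025 ± 0.12 (adjusted p = 0.988) in shRNA cells. Its second probe set, 1449325_at, moved the same ways by less, at 0.71 ± 0.15 (adjusted p = 0.00496) and -0.65 ± 0.15 (adjusted p = 0.00264). On MB, Fads2 fell by 2.84 ± 0.52 (adjusted p = 0.000963) in DM over GM in vector cells, from signals that reached the filter in 8 of 12 arrays and in 0 of the 3 DM vector arrays. Fads1 signals in DM were 449, 464 and 493 in shRNA arrays and 253, 290.0 and 298 in vector arrays. Fads1 signals in GM were 551, 538 and 504 in shRNA arrays and 434, 439 and 500.1 in vector arrays. Fads1, which acts after Fads2 in the same route, was also lowest in DM with the vector, by a smaller margin. Fads1 rose by 0.71 ± 0.11 (adjusted p = 0.000334) with the shRNA in DM and fell by 0.68 ± 0.11 (adjusted p = 8.9e-05) in DM over GM in vector cells.

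Elovl5 signals in DM were 903, 816 and 973 in shRNA arrays and 473, 438 and 482 in vector arrays. Elovl5 signals in GM were 655, 601 and 561 in shRNA arrays and 429.7, 468 and 573 in vector arrays. Elovl5, an elongase of polyunsaturated fatty acids, was high in DM with the shRNA rather than low in DM with the vector, and the 2 vector groups overlap. Elovl5 rose by 0.93 ± 0.12, 1.9-fold (adjusted p = 0.000109) with the shRNA in DM and rose by 0.56 ± 0.12 (adjusted p = 0.00244) in DM over GM in shRNA cells, the medium giving -0.066 ± 0.12 (adjusted p = 0.683) in vector cells. Its second probe set did not pass for DM over GM in shRNA cells (0.30 ± 0.14, adjusted p = 0.129) and passed for the shRNA in DM (0.76 ± 0.14, adjusted p = 0.00199). Elovl6, an elongase of saturated fatty acids, rose by 0.77 ± 0.13 (adjusted p = 0.000871) with the shRNA in DM, and its other probe set rose by 1.24 ± 0.23 (adjusted p = 0.00179). Scd1, a desaturase that makes oleic acid, rose by 0.66 ± 0.13 (adjusted p = 0.00238) with the shRNA in DM and rose by 0.57 ± 0.13 (adjusted p = 0.0152) in GM, the GM call being lost without GM shRNA replicate 2 or 3 or GM vector replicate 3 (adjusted p of 0.0512 to 0.0582) and by 1415965_at (0.24 ± 0.13, adjusted p = 0.328). In DM over GM in vector cells its probe sets opposed each other, at 0.30 ± 0.13 (adjusted p = 0.0644) by the brightest and -0.41 ± 0.13 (adjusted p = 0.0165) by 1415965_at. Scd2, its relative, rose by 0.36 ± 0.094 (adjusted p = 0.0156) with the shRNA in DM by its brightest probe set, with signals of 3221, 3607 and 3540.0 in shRNA arrays and 2752, 2439.8 and 2885 in vector arrays. That call was lost without DM shRNA replicate 2 or 3 or DM vector replicate 2 (adjusted p of 0.0545 to 0.0743). The other 2 Scd2 probe sets changed more with the medium in vector cells, by 1.37 ± 0.11 (adjusted p = 7.59e-08) and 1.98 ± 0.15 (adjusted p = 6.41e-08), beside 0.097 ± 0.094 (adjusted p = 0.422) by the brightest. Both also rose with the shRNA in GM, at 0.47 ± 0.11 (adjusted p = 0.0157) and 0.60 ± 0.15 (adjusted p = 0.0293), beside -0.019 ± 0.094 (adjusted p = 0.944) by the brightest.

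In GM, fewer of these genes passed with the hairpin than in DM. On MA, Scd1, Acss2, Cyp51 and Hsd17b7 rose and Ebp fell, 4 and 1 of 33 members, where 4.36% of all genes rose and 2.71% fell. In limma, 17 of the 33 had an unadjusted p under 0.05, a level for which no share over all genes is given here. The median was 0.23, beside 0.036 over all genes tested, and 24 of the 33 changes were positive. The range ran from -0.62 ± 0.11 for Ebp to 0.71 ± 0.13 for Acss2. All shRNA arrays lay above all vector arrays for 15 members and below them for 4, as they did for 18% and 13.2% of all genes. The count of rises was 8 without DM vector replicate 3, 1 without GM shRNA replicate 2 or GM vector replicate 3 and 2 without GM shRNA replicate 3 or 4, and the count of falls was 2 without DM vector replicate 3. Acss2 and Ebp were the 2 whose calls stood without any single array. On MB, 0 of 13 members rose and 0 fell in limma, where 0.414% and 0.0805% of all genes did. At an unadjusted p under 0.05 there were 2 members on MB, again without a share over all genes.

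Between media, vector cells and shRNA cells are set side by side, and the pair of comparisons of medium and the pair for the hairpin use the same 12 arrays and are not independent of one another. In shRNA cells, 18 of 33 members on MA rose and 3 fell in DM over GM, where 16.2% of all genes rose and 18.9% fell. In vector cells, 5 rose and 11 fell, where 23.2% of all genes rose and 27.2% fell, so neither count stands out from the share over all genes. Member medians were 0.41 in shRNA cells and -0.053 in vector cells, beside -0.020 and -0.017 over all genes tested. Among the 17 sterol enzymes, 13 rose and 1 fell in shRNA cells, against 4 and 4 in vector cells. Among the 10 fatty acid enzymes, 4 rose and 1 fell in shRNA cells, against 1 and 4 in vector cells. The 5 that rose in vector cells were Dhcr7, Msmo1, Hsd17b7, Acss2 and Nsdhl, and the 11 that fell were Fads2, Scap, Fasn, Mvk, Lss, Acly, Ebp, Stard4, Fads1, Pmvk and Srebf1. The rise of Acss2 in vector cells did not pass by its second probe set (0.40, adjusted p = 0.0738). The 3 that fell in shRNA cells were Scap, Me1 and Ebp. In shRNA cells the largest rises were those of Msmo1 (2.19 ± 0.21), Idi1 (1.70 ± 0.28) and Dhcr7 (1.23 ± 0.14). Leaving out single arrays gave 16 to 18 rises and 1 to 3 falls in shRNA cells, and 5 to 7 rises and 10 to 12 falls in vector cells, the single fall in shRNA cells, that of Scap, being left without DM shRNA replicate 1. The 3′ to 5′ log2 ratio of the Gapdh and beta-actin control probe sets lay below its GM level in DM vector arrays (-0.084 to 0.030, against 0.034 to 0.108). It overlapped its GM level in DM shRNA arrays (-0.058 to 0.016, against 0.010 to 0.039), and its part in the medium comparison was not tested.

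**Figure D3:**
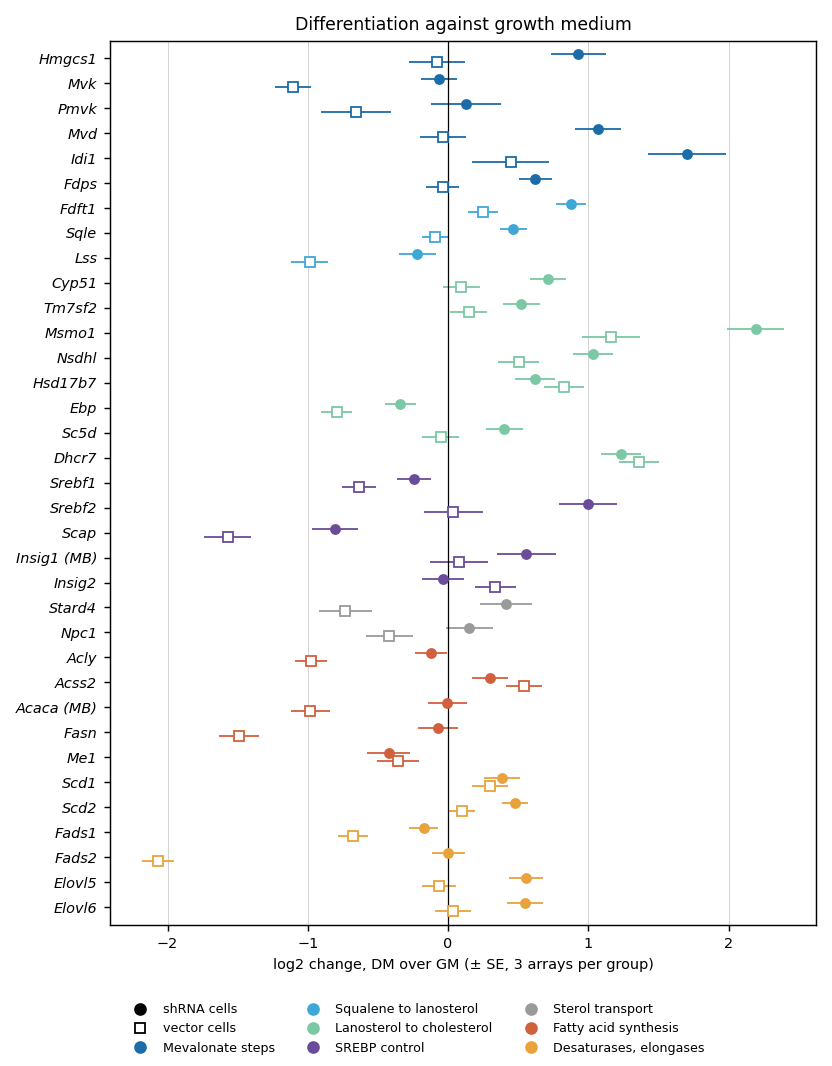
Log2 change in DM over GM (horizontal axis, ± standard error, 3 arrays per group) for each member (rows, coloured by role), in shRNA cells (filled circles) and in vector cells (open squares). Fads2, Fasn, Mvk and Acly sit near 0 in shRNA cells and between -2.07 and -0.98 in vector cells, while Msmo1, Idi1 and Dhcr7 reach 1.23 to 2.19 in shRNA cells.

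The difference between the medium responses, the interaction of medium and hairpin, was tested in the same fit. On MA it passed upward for 15 of 33 members and downward for 0, where it passed upward for 6.05% and downward for 4.6% of all genes. The median was 0.62, beside 0.024 over all genes tested, and 9 of the 17 sterol enzymes and 5 of the 10 fatty acid enzymes were among the 15. Of the 15, the largest was that of Fads2 (2.07 ± 0.16, adjusted p = 5e-06), followed by Fasn (1.42 ± 0.20, adjusted p = 0.000617) and Stard4 (1.15 ± 0.27, adjusted p = 0.0137). Mvd (1.11 ± 0.23, adjusted p = 0.00792), Mvk (1.04 ± 0.18, adjusted p = 0.00246) and Acly (0.86 ± 0.16, adjusted p = 0.00397) passed too. The interactions of Idi1 (1.26 ± 0.39, adjusted p = 0.0564), Srebf2 (0.96 ± 0.29, adjusted p = 0.0529) and Scap (0.77 ± 0.23, adjusted p = 0.053) did not pass. Each passed under the filter at the trimmed mean (adjusted p of 0.0403, 0.0356 and 0.0355). With 1 array left out, that of Idi1 passed without DM vector replicate 1 (1.56, adjusted p = 0.011) and that of Scap without DM shRNA replicate 1 (0.94, adjusted p = 0.0167). That of Srebf2 passed without DM shRNA replicate 1 (1.18, adjusted p = 0.0149), DM vector replicate 3 (1.15, adjusted p = 0.0119) or GM vector replicate 1 (1.09, adjusted p = 0.0481). By the second probe set of each gene, the interaction was no longer called for Mvk (0.38 ± 0.27, adjusted p = 0.46), Stard4 (0.89 ± 0.31, adjusted p = 0.0885), Lss (0.031 ± 0.28, adjusted p = 0.962), Cyp51 (0.66, adjusted p = 0.205), Elovl5 (0.34, adjusted p = 0.344) and Hmgcs1 (0.79, adjusted p = 0.32). For 7 of the 15 the call stood without any single array, those of Mvk, Fads2, Fasn, Stard4, Fdft1, Mvd and Acly. The other 8 were Cyp51, Fads1, Hmgcs1, Msmo1, Elovl5, Fdps, Lss and Sqle, and each lost its call without at least 2 of the 12 arrays. The count was 8 without DM shRNA replicate 2 or GM vector replicate 3, 9 without GM shRNA replicate 3, and at most 18. On MB, 1 of 13 members passed upward and 0 downward, where 0.449% and 0.288% of all genes did: Acaca, at 0.98 ± 0.20 (adjusted p = 0.0344), a call lost without any of 9 of the 12 arrays (adjusted p of 0.054 to 0.12) and kept without the other 3. It was also lost when eBayes was run without a trend (adjusted p = 0.434).

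**Figure D4:**
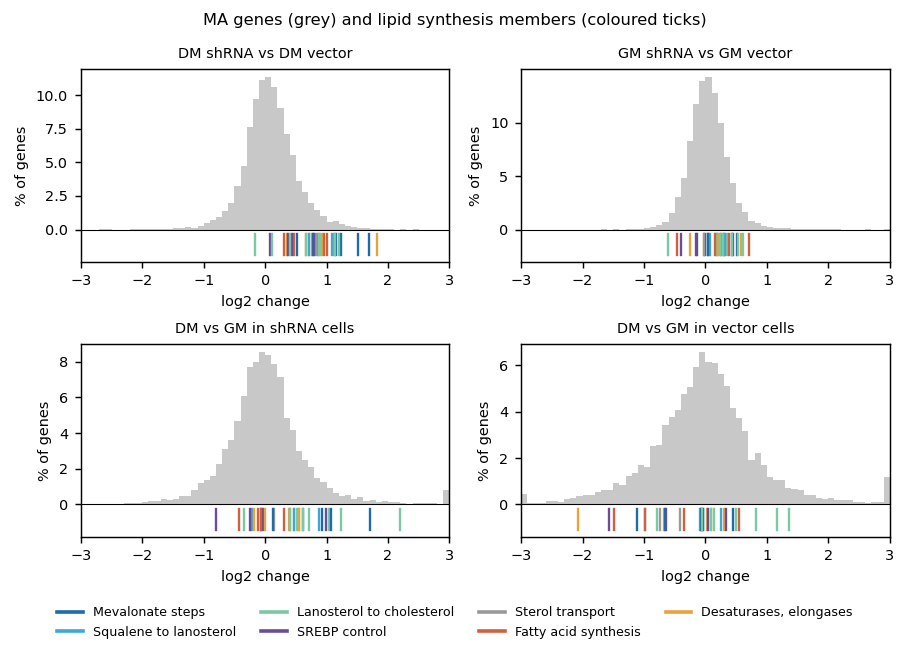
Distribution of log2 changes over the 8639 genes tested on MA (grey bars, per cent of genes, values beyond 3 drawn in the edge bins) with the members as ticks coloured by role, in the 4 comparisons named above each panel. The ticks lie mostly to the right of 0 with the shRNA in DM (median 0.80) and on both sides of 0 in DM over GM in vector cells (median -0.053).

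MB carried 13 of the genes, with a median residual SD of 0.52 over its probe sets, against 0.21 on MA. With the shRNA in DM, Insig1 and Stard4 rose and 0 members fell, 2 of 13, where 1.35% of all genes rose and 0.667% fell. Between media on MB, 0 rose and 3 fell in vector cells (Scap, Fads2 and Acaca), where 6.18% and 7.94% of all genes did. In shRNA cells 0 rose and 0 fell in limma, where 3.29% and 4.49% of all genes did. At an unadjusted p under 0.05 there were 5 members in shRNA cells, a level for which no share over all genes is given. Hsd17b7 was the nearest to a call in shRNA cells (0.74 ± 0.23, adjusted p = 0.0726), and it passed without DM shRNA replicate 3 (0.99, adjusted p = 0.015), while its other MB probe set gave -0.47 ± 0.27 (adjusted p = 0.462). Msmo1, which rose by 1.20 ± 0.21 (adjusted p = 0.000983) on MA, gave -1.30 ± 0.49 (adjusted p = 0.297) on MB, from signals of 7.21, 33.6 and 10.5 in shRNA arrays and 36.7, 109 and 49.0 in vector arrays, mostly near or below the filter. On MB, 9 of the 13 changes with the shRNA in DM were positive, and those of Msmo1, Acss2, Acly and Fads1 were negative. Acss2 (-0.72), Acly (-0.076) and Fads1 (-0.0011) did not pass there, although each rose on MA. Fads1 signals on MB were 576, 395 and 388 in DM shRNA arrays and 407, 405 and 537 in DM vector arrays. The 6 fatty acid enzymes tested on MB had a median of 0.067, with 0 called, beside 0.74 for the 10 on MA. The designs were scaled apart, so levels are not compared between them.

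A list of 30 further genes of the pathway, chosen with earlier results of these data known, was read beside the members. On MA, 16 of them were tested, and with the shRNA in DM 4 rose and 1 fell, where 12.2% and 6.67% of all genes did. Those that rose were Idh1, a cytosolic source of NADPH (1.52 ± 0.23, adjusted p = 0.000399), Aacs, an acetoacetyl-CoA synthetase (1.002 ± 0.19, adjusted p = 0.00221), Mylip, a ubiquitin ligase that removes lipoprotein receptors (0.60 ± 0.15, adjusted p = 0.0131), and Pgd of the pentose phosphate route (0.54 ± 0.14, adjusted p = 0.0129). Fads3, a relative of Fads1 and Fads2, fell by 1.03 ± 0.14 (adjusted p = 0.000127), and its signals in DM were 998, 1129 and 1349 in shRNA arrays and 2025, 2367 and 2757 in vector arrays. Fads3 also moved the other way from both in the medium comparison, as it rose by 1.41 ± 0.14 (adjusted p = 7.89e-07) in vector cells. The median of the 16 was 0.31, beside 0.80 for the members. With the shRNA in GM, 0 of the 16 rose or fell in limma, where 4.36% of all genes rose and 2.71% fell. At an unadjusted p under 0.05 there were 3 of the 16, a level for which no share over all genes is given. In DM over GM, 4 rose and 5 fell in shRNA cells, where 16.2% and 18.9% of all genes did. In vector cells 2 rose and 9 fell, where 23.2% and 27.2% of all genes did. On MB, 10 were tested, and Npc2, the lysosomal partner of Npc1 (0.82 ± 0.20, adjusted p = 0.0471), and Slc25a1, the mitochondrial citrate carrier (0.77 ± 0.17, adjusted p = 0.0261), rose with the shRNA in DM, where 1.35% of all genes did.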

How the data were processed

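RNA from C2C12 cells was hybridised to 2 Affymetrix designs, 12 arrays each, and the values deposited by the authors are intensities on a linear scale, 1 for each probe set of an array. MAS5 is named in the submitters' processing notes, with neither a version nor settings. The deposited arrays share a scale, as the mean after trimming 2% at either end was 150.06 to 150.08 in MA and 150.03 to 150.04 in MB arrays, so the pseudocount of 10% of it is about 15 and the filter of 20% about 30. Between 27.3 and 31.4% of an MA array's signals, and 9.04 to 20% of an MB array's, lay under the pseudocount, and the number of arrays limits the precision, since intensities give no count.

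Signals were analysed as log2(signal + pseudocount). A probe set was tested where it reached the filter in at least 3 of the 12 arrays (14367 on MA, 19301 on MB). With limma 3.58.1 in R 4.3.3, 4 group means were fitted per design, followed by eBayes with a trend and Benjamini-Hochberg adjustment per design and contrast over all tested probe sets at 0.05. The designs were scaled and tested apart. Groups and replicate numbers come from the titles. An exact permutation test of 3 against 3 arrays cannot go below 0.1 and is not quoted. Gene symbols came from GEO's platform annotation, and a gene is represented by its probe set with the highest mean over the 12 arrays. Probe sets with several symbols were left out, which cost 1 for Acss2. The fit was tested on simulated data for the shRNA in DM. Changes of 1 log2 unit were called for 69% of the changed probe sets on MA and 5% on MB. Changes of 2 log2 units were called for 96% and 42%. Of all calls, 6.78% on MA and 2.08% on MB were false. A member without a call on MB may therefore still have changed.

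The members and lists were chosen with earlier results of these data known. By rule, values of every array are given for the members with the largest called change per role with the shRNA in DM and with the medium in vector cells (up to 2 each), for the SREBP regulators, and for members read only on MB. Other probe sets are named for some of the members; single values of other members were chosen after they were seen. Alternatives were pseudocounts of 5 and 50, no filter, a filter at the trimmed mean, quantile normalization, eBayes without a trend, the second probe set of a gene, only the groups compared, the replicate number as a block, and each array left out. For the second probe set, a gene with a single tested probe set kept that probe set. Deviations of same-numbered arrays from their group means correlated at -0.14 to 0.29 on MA (13 pairs) and -0.039 to 0.07 on MB (18 pairs). Arrays with different numbers were not compared in this way, so these values cannot show whether the numbers pair the samples. The main fit did not pair them. Promoters were searched with Python 3.11.15.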

Additional observations from a re-analysis of the deposited data

Results flagged for a closer look

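For 16 members the response to the medium differed between shRNA and vector cells by the interaction term in limma. Of the 15 calls on MA, 7 stood without any single array and 8 did not, and the call on MB was lost without any of 9 arrays. By the second probe set, Mvk, Stard4, Lss, Cyp51, Elovl5 and Hmgcs1 were no longer called. Each difference below is the DM over GM log2 change in shRNA cells minus that in vector cells, and all 16 are positive. Among the mevalonate enzymes it was 1.11 ± 0.23 for Mvd, 1.04 ± 0.18 for Mvk, 1.01 ± 0.28 for Hmgcs1 and 0.66 ± 0.17 for Fdps. Between farnesyl pyrophosphate and lanosterol it was 0.77 ± 0.19 for Lss, 0.63 ± 0.15 for Fdft1 and 0.56 ± 0.14 for Sqle. After lanosterol it was 1.03 ± 0.29 for Msmo1 and 0.62 ± 0.18 for Cyp51, and for the sterol carrier Stard4 it was 1.15 ± 0.27. Among the fatty acid enzymes it was 2.07 ± 0.16 for Fads2, 1.42 ± 0.20 for Fasn, 0.86 ± 0.16 for Acly, 0.62 ± 0.17 for Elovl5 and 0.50 ± 0.15 for Fads1, and on MB 0.98 ± 0.20 for Acaca. For Fads2, Fasn, Mvk, Lss, Acly, Stard4, Fads1 and Acaca the DM over GM change was negative and called in vector cells (-2.07 ± 0.12, -1.49 ± 0.14, -1.11 ± 0.13, -0.99 ± 0.13, -0.98 ± 0.11, -0.73 ± 0.19, -0.68 ± 0.11 and, on MB, -0.98 ± 0.14) and not called in shRNA cells. For Hmgcs1, Mvd, Fdps, Fdft1, Sqle, Cyp51 and Elovl5 it was positive and called in shRNA cells (0.47 to 1.07) and not called in vector cells. Msmo1 passed upward in both, at 2.19 ± 0.21 in shRNA cells and 1.16 ± 0.21 in vector cells.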

How the results depend on the processing

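With the shRNA in DM on MA, 22 to 27 of the members were called higher under the alternatives listed (22 under the filter at the trimmed mean and with only the groups compared) and 22 to 28 with 1 array left out. The filter at the trimmed mean left fewer members tested, and 0 MA calls were lost among those left. With the second probe set, members with a single tested probe set, such as Fasn and Fdps, could not lose their call. With the shRNA in GM on MA, 1 member rose with the second probe set of each gene, 2 fell under the filter at the trimmed mean and 3 fell with only the groups compared; with 1 array left out, 1 to 8 rose and 1 to 2 fell. In DM over GM in shRNA cells on MA, 1 member fell with eBayes without a trend and 1 with the replicate block, and 1 to 3 fell with 1 array left out. The interaction on MA passed for 9 members with eBayes without a trend and 9 with the second probe set, and for 8 to 18 with 1 array left out. With the second probe set, the interaction calls of Fasn, Fdps, Fads1, Msmo1 and Sqle could not change, as each has a single tested probe set. On MB, 0 members rose with the shRNA in DM with eBayes without a trend, 1 fell with the shRNA in GM after quantile normalization, and in DM over GM in shRNA cells 1 rose under the filter at the trimmed mean, 2 after quantile normalization, 1 with the replicate block and 0 to 1 with 1 array left out. The MB interaction passed for 0 members with eBayes without a trend and 0 with the replicate block, and for 0 to 1 with 1 array left out. With the replicate number as a block, 6 member calls on MA and 1 on MB were lost and 4 on MA and 1 on MB were gained, while 27 members still rose with the shRNA in DM on MA. The numbers are not known to mark a shared culture or day. Directions turned with the second probe set for Lss in DM over GM in vector cells (0.018, adjusted p = 0.951), Sc5d with the shRNA in DM (-0.049, adjusted p = 0.932), Me1 in DM over GM in shRNA cells (0.17, adjusted p = 0.487), Scd1 in DM over GM in vector cells (-0.41, adjusted p = 0.0165) and Scd2 with the shRNA in GM (0.47, adjusted p = 0.0157). Of 4719 member values under the alternatives, 1859 belonged to results called in the main fit, and 192 of these lost the call. A further 59 values gained a call, and 92 changed sign without a call in either setting. The cause was not tested. The spread between 3 arrays per group limits what could be called, and more so on MB.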
